A study of Mus musculus with 24 samples.

Results

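SmcHD1 KO neural stem cells (NSCs) were compared with SmcHD1 KO day 9 cells across all autosomal genes of the deposited expression table. Members were the genes located outside chromosomes X and Y whose mean FPKM (mapped fragments per kilobase of transcript length, relative to the library's total) over the 3 KO day 9 and the 3 KO NSC libraries was at least 1. This gave 11763 of 23119 listed genes, and 11762 of them were tested because 1, Serbp1, had a failed estimate in 5 of the 24 libraries. The members nearest the limit were Prkch at a mean FPKM of 1.0001, just inside, and Spock1 at 0.999, just outside.

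The cells came from JB4/EI7HZ2, a female mouse embryonic stem cell (mESC) line from a cross of JF1 and B6 mice that carries G418 and zeocin resistance genes on its X chromosomes. The KO is 1 line made from it with CRISPR-Cas9 and a guide to the ATPase domain of Smchd1, and both alleles have frameshift deletions. The unmodified WT line, also 1 line, was sampled in the same way, so genotype and line cannot be told apart. Poly(A) RNA of each line was sequenced in 3 libraries per stage, 24 in all, and besides day 9 cells and NSCs the stages were mESCs and day 7 cells. Day 9 cells were early neurectoderm grown as floating aggregates in serum-replacement medium, whereas NSCs were obtained by another protocol of about 3 weeks under drug selection. Its steps were a monolayer in neural medium, then aggregates in medium with EGF and FGF2, and outgrowth of NSCs from the attached aggregates. The NSCs were therefore not grown from the day 9 cells, and differentiation stage, medium, growth factors and selection cannot be told apart in this comparison. The study calls its RNA experiments on the JB4/EI7HZ2 cells and their derivatives biologically independent, but the sources used here do not say this of the KO line by name, nor which steps were repeated. The p-values measure the spread between libraries within groups, which the fit estimates for each gene over all 24 libraries in 8 groups.

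SmcHD1 is a noncanonical SMC protein of chromatin with roles in X inactivation, imprinted clusters, Hox clusters and clustered protocadherins. Early neurectoderm is an epithelium that has just left pluripotency and is being patterned along its axes by retinoic acid, Wnt, FGF and hedgehog signals. NSCs held in EGF and FGF2 resemble radial glia: they keep dividing, carry glial transcription factors and can form neurons, astrocytes and oligodendrocytes. In bulk RNA, fewer cells of a type and less RNA per cell cannot be told apart.

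Smchd1 mRNA was measured at 3.802, 4.03 and 4.399 FPKM in the KO day 9 libraries and 4.37, 3.83 and 3.43 FPKM in the KO NSC libraries, whereas WT had 21.98 ± 0.251 (SD, n = 3) at day 9 and 17.99 ± 2.95 (SD, n = 3) in NSCs. The transcript was lower in every KO library than in every WT library and did not pass the test between the KO stages (difference of -0.06 on the log2(FPKM + 1) scale, limma adjusted p = 0.693). Read totals are not stated. Relative read numbers of the 6 libraries, estimated from the steps between the lowest values, were 0.983 to 1.09 at day 9 and 0.913 to 1.07 in NSCs. The sum of FPKM was higher at day 9 (592928 to 667693) than in NSCs (504660 to 576420). Within groups, libraries correlated at 0.979 or above (Pearson, log2 values), and no library repeated the values of another. KO day 9 replicate 2 was well above the other 2 day 9 libraries in several ventral midline and endoderm genes, and values without it are given beside those lists.

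In KO NSCs 3406 genes were higher and 3676 were lower than in KO day 9 cells at an adjusted p under 0.05 in limma, 7082 in all, or 60.2% of the genes tested (29.0% higher and 31.3% lower). The median log2 fold change over all tested genes was -0.03. At least a 2-fold change on this scale (log2 of 1) was reached by 1308 of the higher and 1482 of the lower genes, and an 8-fold change (log2 of 3) by 163 and 225. The balance of directions depended on the scaling: when every library was brought to the same sum of FPKM, the median of all genes shifted by 0.22 and 64.3% of the calls were higher (4636 higher and 2576 lower) in place of 48.1%. All fold changes below are on the log2(FPKM + 1) scale as deposited, which understates changes of low genes.

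**Figure D1:**
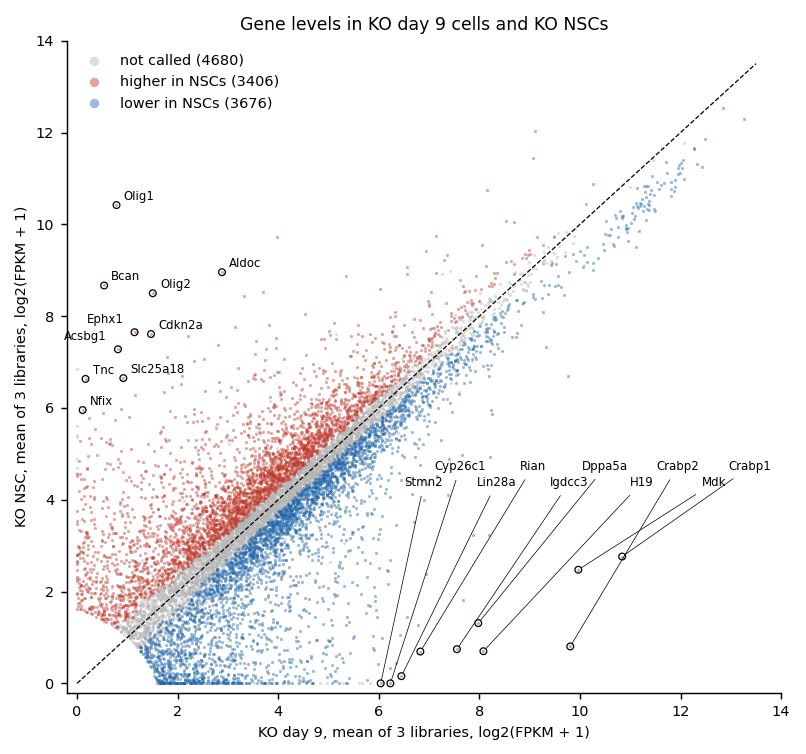
Mean level of each tested gene in KO day 9 cells (x axis) and KO NSCs (y axis), both as log2(FPKM + 1) of the mean of 3 libraries; red and blue points passed the test in either direction and grey points did not. The 10 largest rises and the 10 largest falls among genes of at least 5 FPKM are ringed; Olig1 rose from under 2 to over 1200 FPKM, and Crabp1 fell below 17 FPKM from the highest day 9 level of the ringed genes.

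The 10 largest rises belonged mostly to glial and stem cell genes. Olig1, a transcription factor of the oligodendrocyte lineage, was at 0.547, 0.535 and 1.09 FPKM in the day 9 libraries and 1368, 1483 and 1255 FPKM in the NSC libraries. Its log2 fold change of 9.65 ± 0.25 (SE, adjusted p = 8.14e-18) was the largest rise of this set, and the groups were far apart. Bcan, which encodes the brain proteoglycan brevican, went from 0.506, 0.566 and 0.286 to 402, 435 and 379.9 FPKM (log2 fold change 8.13 ± 0.16, adjusted p = 6.17e-20). Ephx1, an epoxide hydrolase, went from 0.859, 1.44 and 1.33 to 186, 207 and 206 FPKM. Slc25a18, a mitochondrial glutamate carrier, went from 0.154, 1.36 and 1.17 to 99.7, 114 and 84.2 FPKM. The others were Olig2, Acsbg1, Tnc, Cdkn2a, Aldoc and Nfix, described with their groups. The rule that named the 10 required that the groups not overlap.

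The 10 largest falls came from several groups of genes. Mdk, which encodes the secreted growth factor midkine, was at 1056, 956 and 987 FPKM at day 9 and 10.3, 1.27 and 2.13 FPKM in NSCs, a log2 fold change of -7.86 ± 0.35 (adjusted p = 3.44e-13). Its level in NSC replicate 1 was well above that in the other 2 and still far below day 9. Mdk shares its locus with Chrm4, so reads there could have been counted for either. Igdcc3, an immunoglobulin-family membrane protein, went from 154, 203 and 204 to 0.782, 0.573 and 0.6695 FPKM (log2 fold change -6.8 ± 0.17). The other falls were Crabp1, Crabp2, H19, Rian, Dppa5a, Lin28a, Cyp26c1 and Stmn2, given below.

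Of 18 listed NSC and radial glia markers, all were tested. In NSCs 8 rose (44.4%, against 29.0% of all genes), 5 fell (27.8%, against 31.3%) and 5 did not pass the test, with a median log2 fold change of 0.37. The risen genes included Tnc, an extracellular matrix protein of germinal zones, at 0.208, 0.0509 and 0.113 FPKM at day 9 and 118, 105 and 72.01 FPKM in NSCs (log2 fold change 6.44 ± 0.2, adjusted p = 1.3e-16). Ptprz1, a receptor phosphatase of radial glia, went from 2.87, 4.31 and 3.58 to 176, 197 and 196 FPKM (log2 fold change 5.39 ± 0.16). Fabp7, the brain fatty acid binding protein, was already at 610.1, 468 and 536 FPKM at day 9 and reached 3089, 3025 and 2286 FPKM in NSCs, which made it one of the 10 most abundant mRNAs there. Slc1a3, Egfr, Sox9, Notch1 and Rfx4 also rose.

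The 5 markers that fell were Prom1, Msi1, Pax6, Nr2e1 and Sox2. Prom1, the apical membrane protein prominin, went from 42.4, 56.1 and 57.03 to 4.899, 5.99 and 5.52 FPKM. Msi1, an RNA-binding protein of neural progenitors, went from 197, 187 and 221 to 27.6, 33.4 and 30.3 FPKM. Nes, Vim, Hes1, Hes5 and Hopx did not pass the test: Nes, the intermediate filament nestin, was at 72.98, 88.5 and 90.02 FPKM at day 9 and 140.0, 109 and 111 FPKM in NSCs (adjusted p = 0.0871). Vim, vimentin, was at 957 ± 103 and 947 ± 50.2 FPKM (SD, n = 3). Both filaments were thus abundant in both kinds of cells.

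The study followed differentiation in these same samples with a set of markers, and how they were chosen is not stated. Of 17, 14 were tested (Gata4, Gata6 and Tbx6 were under the limit on levels), with 3 higher (21.4%, against 29.0% of all genes) and 6 lower (42.9%, against 31.3%). Olig2 went from 0.964, 2.91 and 1.65 to 351, 369 and 362 FPKM (log2 fold change 7.05 ± 0.31). Zfp521, a zinc finger gene of early neural cells, went from 12.3 ± 0.929 to 15.5 ± 1.104 FPKM (SD, n = 3), a small rise whose call was lost with a pseudocount of 0.1 (adjusted p = 0.201) and without day 9 replicate 1 (0.119) or 2 (0.0598) or NSC replicate 1 (0.0916) or 2 (0.0864). Sox1, an early neural transcription factor whose locus overlaps Gm5607, was at 46.9, 46.6 and 46.2 FPKM at day 9 and 4.31, 1.903 and 4.06 in NSCs (log2 fold change -3.48 ± 0.19). Pax6 fell from 50.3, 70.5 and 70.3 to 15.02, 22.6 and 18.7 FPKM. Sox2 fell from 199, 174 and 184 to 108, 157 and 128 FPKM (log2 fold change -0.52 ± 0.13), a call lost under the same-sum scaling (adjusted p = 0.124). The Pax6 and Sox2 loci overlap the transcripts Pax6os1 and Sox2ot. Col4a1, a basement membrane collagen, was at 16.5 ± 1.24 FPKM at day 9 and 15.6 ± 1.31 in NSCs (SD, n = 3). Snai1, a mesenchymal factor, was at 1.69 ± 0.634 and 1.07 ± 1.17 FPKM, and neither passed the test.

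**Figure D2:**
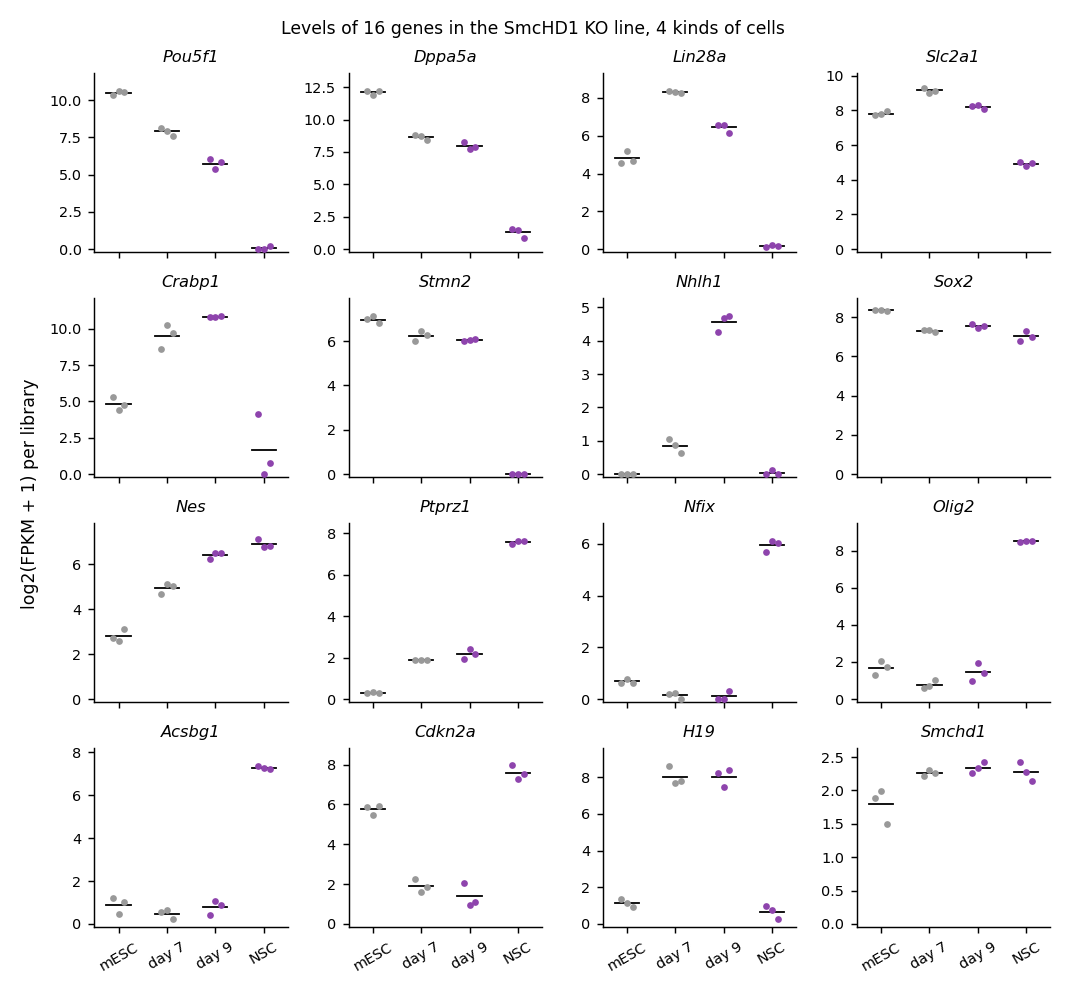
Levels of 16 genes in each library of the KO line as log2(FPKM + 1), with mESCs and day 7 cells in grey and the 2 groups compared in purple; black lines are means of 3 libraries. Pou5f1, Dppa5a and Stmn2 were lower at each later kind of cells, Lin28a was highest at day 7, and Ptprz1, Nfix, Olig2 and Acsbg1 were high in NSCs and low in the other 3 kinds of cells.

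All 8 genes of the list of gliogenic competence factors rose (100%, against 29.0% of all genes). These are transcription factors and cytokine receptor components that let progenitors make glia. Nfix, a nuclear factor I gene, was at 0, 0 and 0.241 FPKM at day 9 and 50.7, 67.6 and 64.7 FPKM in NSCs (log2 fold change 5.84 ± 0.17, adjusted p = 4.92e-17). Its relative Nfib went from 0.153, 0.064 and 0.307 to 37.5, 44.4 and 37.9 FPKM (log2 fold change 5.12 ± 0.15). Nfia, Sox9, Zbtb20, Stat3, Lifr and Il6st rose too, and the median log2 fold change of the list was 2.56. In KO mESCs and at day 7 Nfib was at 1.92 ± 0.303 and 0.0957 ± 0.05798 FPKM (SD, n = 3), so the NSCs alone of the 4 kinds of KO cells held it at a high level.

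Of 18 oligodendrocyte lineage genes, 13 were tested, 11 rose (84.6%, against 29.0% of all genes) and 2 fell (15.4%, against 31.3%). Besides Olig1 and Olig2, Pdgfra, the PDGF receptor that marks oligodendrocyte precursors (named after its values were seen), was at 0.763, 0.553 and 0.763 FPKM at day 9 and 8.18, 5.88 and 12.2 FPKM in NSCs. Lhfpl3, Sox8, Gpr17, Cspg4 and Nkx2-2 also rose, as did Cnp, Omg and Bcas1, which are genes of maturing or myelinating oligodendrocytes. Of the 2 that fell, Mbp, myelin basic protein, went from 8.68, 7.62 and 8.99 to 0.488, 0.203 and 0.388 FPKM. Gm98, an older symbol of the myelin regulator Myrf, went from 3.39, 3.74 and 4.65 to 0.6204, 0.555 and 0.531 FPKM. Mog, Mag, Enpp6 and Sox10 were under the limit on levels.

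Astrocyte genes rose without a fall: 12 of 16 tested were higher (75%, against 29.0% of all genes). Gja1, Apoe, Clu and Fgfr3 did not pass the test, and the median log2 fold change was 2.1. Acsbg1, an acyl-CoA synthetase of astrocytes, was at 0.349, 1.09 and 0.831 FPKM at day 9 and 162, 154 and 147 FPKM in NSCs (log2 fold change 6.49 ± 0.23). Aldoc, the brain aldolase, went from 6.94, 7.26 and 4.92 to 424, 511 and 553 FPKM (log2 fold change 6.08 ± 0.38). Gfap, the astrocyte filament protein (named after its values were seen), was at 0.214, 0 and 0.243 FPKM at day 9 and 7.51, 6.87 and 60.6 FPKM in NSCs. NSC replicate 3 held far more Gfap mRNA than the other 2 libraries, and all 3 lay above day 9. This library was the highest of the 3 in 13 of the 16 tested members, among them S100b (29.3, 27.3 and 56.5 FPKM in replicates 1 to 3) and Apoe (261, 403 and 848 FPKM). Over the alternatives run, those without each library included, 12 or 13 members were higher and at most 1 lower.

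Early neuron genes fell: of 15 tested, 11 were lower (73.3%, against 31.3% of all genes) and none was higher. The other 4 (Mapt, Gap43, Myt1 and Stmn3) did not pass the test, and the median log2 fold change was -1.65. Stmn2, a microtubule regulator of growing axons, was at 62.7, 64.6 and 66.8 FPKM at day 9 and listed at 0 in all 3 NSC libraries (adjusted p = 4.84e-18). Nefl, the light neurofilament, went from 50.7, 56.5 and 68.7 to 0.581, 0.416 and 0.995 FPKM (log2 fold change -5.17 ± 0.26). Both had also been present in KO mESCs, at 124 ± 13.6 and 53.98 ± 14.6 FPKM (SD, n = 3), respectively. Of 10 tested proneural factors, which drive progenitors to become neurons, 8 fell (80%, against 31.3% of all genes). Hes6 alone rose (10%, against 29.0%), from 68.02 ± 3.21 to 103 ± 15.02 FPKM (SD, n = 3). Nhlh1 was at 18.1, 24.9 and 25.5 FPKM at day 9 and 0, 0.0819 and 0 FPKM in NSCs. Nhlh2 was at 16.6, 25.7 and 25.4 FPKM at day 9 and listed at 0 in every NSC library. Both were listed at 0 in the KO mESC libraries, so among the 4 kinds of KO cells these neuronal factors were highest at day 9.

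Pluripotency and epiblast genes were still detected at day 9 and fell in NSCs (median log2 fold change -2.89). Of 20 tested, 18 were lower (90%, against 31.3% of all genes) and 1 was higher (5%, against 29.0%). Dppa5a went from 307, 215 and 231 FPKM at day 9 to 1.92, 1.71 and 0.82 FPKM in NSCs (log2 fold change -6.68 ± 0.24). Pou5f1, the Oct4 gene, was at 1460.0 ± 119 FPKM in KO mESCs (SD, n = 3), 240.5 ± 47.7 at day 7 and 65.2, 39.8 and 55.5 in the day 9 libraries, and at 0, 0 and 0.156 in the NSC libraries. The entry of Nanog, which is shared with Nanogpd, went from 37.03, 21.1 and 27.5 to 0.544, 0.162 and 1.05 FPKM. Fgf4, a growth factor of the epiblast, went from 4.82, 3.29 and 3.85 to 0, 0.0662 and 0.0633 FPKM. Klf4, which also acts outside pluripotent cells, was the gene that rose, from 2.34, 1.36 and 3.14 to 8.61, 6.65 and 4.095 FPKM (adjusted p = 0.00818). Day 9 cells therefore held measurable pluripotency mRNA, at a few percent of the mESC level for Pou5f1, which was almost absent from NSCs. Pou3f1, also on the list, did not pass the test, with means of 9.44 FPKM at day 9 and 9.79 in NSCs.

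Lin28a and Lin28b are RNA-binding proteins of early embryonic cells that block the maturation of let-7 microRNAs, and let-7 in turn represses Lin28, Hmga2 and Igf2bp mRNAs through their 3′ UTRs. All 8 genes of this list fell (100%, against 31.3% of all genes), with a median log2 fold change of -3.08. Of 10 let-7 sequences that RefSeq (GRCm38.p6) gives, 9 share the seed (bases 2 to 8, in capitals), and 3 are shown to explain the sites that follow.
mmu-let-7a-5p: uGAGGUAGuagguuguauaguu
mmu-let-7g-5p: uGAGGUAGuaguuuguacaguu
mmu-let-7i-5p: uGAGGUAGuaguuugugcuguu
The 7 letters that pair with this seed, CTACCTC, was searched on the transcript strand in the longest annotated 3′ UTR of each tested gene (NCBIM37, the assembly also called mm9, with gencode vM1). All 8 members held it at least once, against 9.98% of the 11227 tested genes with a 3′ UTR, and 15.5% of those whose UTR length lay within the members' range of 1186 to 6340 bases. The list was drawn from genes known for their link to let-7, so this share describes the list and is no result of the comparison. The first site in 4 of them reads, 5′ to 3′ on the transcript with the seed match in capitals, as follows.
Lin28a (2 sites, chr4:133561104-133561126, minus strand): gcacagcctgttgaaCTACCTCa
Lin28b (4 sites, chr10:45100828-45100850, minus strand): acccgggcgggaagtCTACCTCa
Igf2bp1 (4 sites, chr11:95823092-95823114, minus strand): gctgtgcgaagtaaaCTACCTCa
Hmga2 (4 sites, chr10:119801280-119801302, minus strand): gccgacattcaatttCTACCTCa
Lin28a mRNA was at 94.3, 94.3 and 70.5 FPKM in the day 9 libraries and 0.0638, 0.171 and 0.109 FPKM in the NSC libraries (log2 fold change -6.28 ± 0.19, adjusted p = 4.92e-17). The entry of Igf2bp1 went from 136, 53.3 and 52.02 to 0.767, 0.183 and 0.109 FPKM, with day 9 replicate 1 above the other 2. Lin28b (named after its values were seen, like Hmga2) went from 18.6, 20.7 and 18.04 to 0.241, 0.07197 and 0.0344 FPKM. Hmga2, a chromatin protein of proliferating embryonic cells, fell less, from 67.2, 75.3 and 63.02 to 20.1, 12.5 and 17.7 FPKM (log2 fold change -1.99 ± 0.25). Mature let-7 was not measured in these poly(A) libraries.

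Retinoic acid genes were among the largest falls of the comparison. Retinoic acid posteriorizes the neural plate, and its handling proteins are among its own targets. Of 11 tested, 8 fell (72.7%, against 31.3% of all genes) and 1, Aldh1a1, rose (9.09%, against 29.0%). Crabp1, a cytoplasmic retinoic acid binding protein, was at 1838, 1801 and 1854 FPKM at day 9 and 16.7, 0 and 0.665 FPKM in NSCs (log2 fold change -9.21 ± 0.77, adjusted p = 1.65e-08). NSC replicate 1 kept a low level of it that the other 2 lacked. Crabp2 went from 883, 919.7 and 881 to 1.199, 0.268 and 0.7698 FPKM (log2 fold change -9.04 ± 0.25). Cyp26c1, a retinoic acid degrading enzyme, went from 68.5, 71.02 and 82.7 FPKM to 0 in every NSC library. Both Crabp genes were already rising at day 7, at 823 ± 417 and 439.8 ± 117 FPKM (SD, n = 3). Aldh1a1, an enzyme that makes retinoic acid, was listed at 0 in 2 day 9 libraries and reached 7.09, 14.1 and 30.9 FPKM in NSCs, the highest in replicate 3. The summed FPKM of the 15 listed genes was 2862 to 2901 at day 9 and 31.3 to 52.4 in NSCs.

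EGF and FGF signal through receptor kinases and MAPK, and both were present in the NSC medium. Of 22 tested receptors and feedback genes of the MAPK pathway, 13 were higher (59.1%, against 29.0% of all genes) and 4 lower (18.2%, against 31.3%). The other 5 did not pass the test, and the median log2 fold change was 1.38. Egfr, the EGF receptor, went from 1.03, 0.396 and 1.11 to 57.98, 82.9 and 45.9 FPKM (log2 fold change 5.08 ± 0.28). Etv4, an ETS factor induced by FGF signals, went from 3.36, 2.22 and 2.19 to 71.3, 49.8 and 59.2 FPKM (log2 fold change 4.09 ± 0.25). Etv1, Etv5, Spry1, Spry2, Spry4, Spred1, Spred2, Spred3 and Dusp6, which are transcriptional outputs or feedback inhibitors, rose as well. Among receptors Fgfr1 rose, whereas Fgfr2 fell from 35.96, 32.6 and 43.7 to 5.09, 4.66 and 4.28 FPKM and Erbb2 also fell. Dusp4, another phosphatase of the pathway, fell from 33.7 ± 4.98 to 10.6 ± 2.42 FPKM (SD, n = 3). The immediate early genes Egr1, Fos and Junb did not pass the test. Egr1 was at 20.9, 19.6 and 22.5 FPKM at day 9 and 77.3, 97.95 and 75.1 FPKM in NSCs (log2 fold change 1.93 ± 1.26, SE, adjusted p = 0.197). Fos was at 15.8, 19.1 and 22.9 FPKM at day 9 and 67.0, 62.9 and 46.9 FPKM in NSCs (log2 fold change 1.56 ± 1.21, adjusted p = 0.278). The groups did not overlap for Egr1 and Fos, each higher in the 3 NSC libraries, and overlapped for Junb. Of all tested genes, 69.5% had no overlap.

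Notch genes, which hold progenitors undifferentiated, were called at shares near those of all genes. Of 17 tested, 6 rose (35.3%, against 29.0% of all genes), 5 fell (29.4%, against 31.3%) and 6 did not pass the test, with a median log2 fold change of -0.06. The receptor Notch1 went from 13.7, 16.8 and 18.9 to 53.2, 60.9 and 49.7 FPKM. The effector Hey1 went from 9.68, 14.3 and 10.1 to 69.3, 34.5 and 42.7 FPKM (log2 fold change 1.97 ± 0.26). The ligand Jag2 fell from 5.13, 4.695 and 4.29 to 0.217, 0.194 and 0 FPKM. The glycosyltransferase Mfng fell from 23.4, 24.96 and 28.1 to 5.13, 3.44 and 2.19 FPKM. Only 3 of the list were higher without NSC replicate 2. The delta ligands Dll1 and Dll3 and the effectors Hes1 and Hes5 did not pass the test.

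The Wnt and hedgehog lists mostly fell. Of 24 tested Wnt pathway genes, 16 were lower (66.7%, against 31.3% of all genes) and 4 higher (16.7%, against 29.0%), with a median log2 fold change of -1.87. Sfrp2, a secreted Wnt inhibitor, was at 297, 247 and 330.3 FPKM at day 9 and 9.65, 8.64 and 7.07 FPKM in NSCs (log2 fold change -4.95 ± 0.2). Its relative Sfrp1 went from 32.2, 90.5 and 34.7 to 2.21, 2.06 and 1.46 FPKM, with day 9 replicate 2 the highest. Wnt5a, a ligand of the noncanonical branch, rose from 3.87 ± 0.149 to 12.9 ± 2.14 FPKM (SD, n = 3). Nkd1, a feedback inhibitor, rose from 9.05 ± 1.14 to 29.02 ± 6.67 FPKM. Axin2, a common readout of the pathway, did not pass the test. Of 10 tested hedgehog genes, 7 fell (70%, against 31.3% of all genes) and none rose. Without day 9 replicate 2, 6 fell. Gli3, which acts mainly as a repressor, fell from 22.9, 22.6 and 25.2 to 5.09, 4.07 and 3.68 FPKM. Gli1, a target of the pathway, fell from 3.22, 9.44 and 5.39 to 0.121, 0 and 0.0518 FPKM. Gli1 overlaps Arhgap9 in the annotation.

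In the BMP and TGF-beta list, 9 of 18 tested genes fell (50%, against 31.3% of all genes) and 4 rose (22.2%, against 29.0%). Tgfbr2, Tgfb2, Tgfb3 and Bmpr2 rose. The receptor Tgfbr2 went from 0.835, 0.662 and 0.388 to 8.82, 7.8 and 6.51 FPKM. The ligand Tgfb2 went from 0.714, 0.9705 and 0.902 to 7.45, 5.38 and 11.5 FPKM. Bmp6 was at 3.66, 1.83 and 2.99 FPKM at day 9 and listed at 0 in every NSC library. Id4, a target of BMP signals, fell from 20.1, 31.2 and 28.3 to 7.75, 5.26 and 5.896 FPKM. Id1 and Id3 did not pass the test. The type I receptors changed unevenly, with Tgfbr1 and Bmpr1b lower and Bmpr1a not called.

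Regional patterning genes, which record position along the neural tube, were mainly lower in NSCs. Of 19 listed forebrain factors only 7 reached the limit on levels, 5 of them fell (71.4%, against 31.3% of all genes) and none rose. Otx2, a forebrain and midbrain homeobox gene, went from 30.1, 22.8 and 18.3 to 0.137, 0 and 0 FPKM. Sp8, a zinc finger factor of the anterior neural border, went from 6.33, 12.3 and 10.4 FPKM to 0 in every NSC library. Of 13 tested midbrain and hindbrain genes, 9 fell (69.2%, against 31.3% of all genes) and 2, En1 and En2, rose (15.4%, against 29.0%). Wnt1, a signal of the midbrain border and the dorsal midline, was at 21.9, 7.77 and 18.99 FPKM at day 9 and 0, 0 and 0.0826 FPKM in NSCs. Irx3, an Iroquois homeobox gene, went from 87.3, 104 and 117 to 8.77, 10.8 and 11.5 FPKM. En1 and En2 mark the midbrain and hindbrain border. En1 went from 2.21, 1.72 and 0.578 to 5.87, 6.76 and 8.603 FPKM. En2 went from 5.44, 3.11 and 3.26 to 9.78, 8.87 and 11.1 FPKM.

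Dorsoventral factors fell nearly throughout: 16 of 18 tested were lower (88.9%, against 31.3% of all genes). The other 2, Dbx2 and Nkx2-2, were higher (11.1%, against 29.0%), and the median log2 fold change was -2.12. The dorsal factor Msx3 was at 40.7, 26.4 and 33.8 FPKM at day 9 and 0, 0 and 0.0859 FPKM in NSCs. Gsx1, another dorsal factor, went from 33.6, 25.5 and 44.7 to 0.267, 0.596 and 0.684 FPKM. Dbx2 rose from 0.347, 2.46 and 2.16 to 31.7, 42.97 and 32.98 FPKM. Ventral genes were uneven among the day 9 libraries, with replicate 2 the highest in each. Nkx6-1 went from 4.73, 27.6 and 6.83 to 2.101, 8.695 and 1.12 FPKM. Foxa2, a floor plate and endoderm factor, went from 2.42, 11.04 and 2.22 to 0.543, 2.24 and 1.67 FPKM. Shh, the floor plate signal (named after its values were seen), went from 1.602, 10.3 and 1.97 to 0.0849, 0 and 0 FPKM. The groups overlapped for Nkx6-1 and Foxa2. Nkx2-2, which marks ventral progenitors and oligodendrocyte precursors, went from 0.0972, 8.41 and 0.947 up to 12.1, 13.7 and 6.28 FPKM, also with overlap. Without day 9 replicate 2 neither Nkx6-1 (adjusted p = 0.205) nor Foxa2 (adjusted p = 0.23) passed the test, and 14 genes of the list were lower. Both were also lost without NSC replicate 1 (adjusted p = 0.0902 and 0.125), and Nkx6-1 without NSC replicate 3 (0.15). Nkx6-1 was lost too with a pseudocount of 0.1 (0.0775) and at the same sum of FPKM (0.0556), and Nkx2-2 with the replicate number as a block (0.124). With only the 6 libraries compared in the fit, Nkx6-1 (adjusted p = 0.244), Foxa2 (0.155) and Nkx2-2 (0.125) were no longer called. Nkx2-2 overlaps its antisense transcript Nkx2-2as.

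Hox genes, which specify positions from the hindbrain backwards, went both ways: of 13 tested of 39 listed, 5 rose (38.5%, against 29.0% of all genes) and 6 fell (46.2%, against 31.3%). The falls were Hoxa2 and genes of the Hoxb cluster. Hoxa2 was at 59.6, 77.5 and 76.9 FPKM at day 9 and 5.23, 5.695 and 2.54 FPKM in NSCs (log2 fold change -3.76 ± 0.24). Hoxb2 went from 38.9, 67.3 and 61.4 to 1.76, 3.804 and 1.13 FPKM (log2 fold change -4.19 ± 0.26). The rises were Hoxa3, Hoxa4, Hoxa5, Hoxd8 and Hoxd9. Hoxa5 went from 0, 0.315 and 0 to 9.37, 12.5 and 10.05 FPKM (log2 fold change 3.4 ± 0.38). Hoxd8 went from 0, 0 and 0.795 to 7.36, 9.498 and 13.2 FPKM (log2 fold change 3.15 ± 0.29). Hoxa4 and Hoxd9 were named after their values were seen, and neither passed 0.189 FPKM in any day 9 library. In NSCs Hoxa4 was at 6.63, 6.49 and 7.56 FPKM and Hoxd9 at 3.196, 4.83 and 5.94. The Hoxa5 entry spans Hoxa3, Hoxa4 and Hoxa6, so reads there could have been divided among them.

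**Figure D3:**
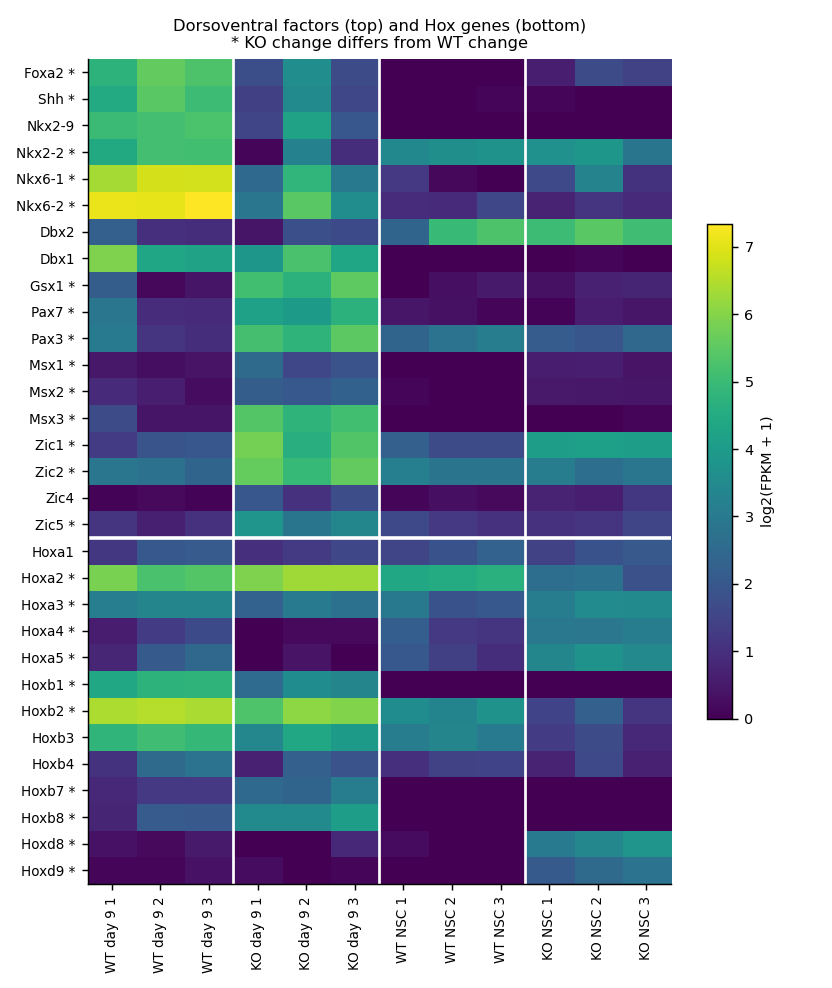
Levels of the 18 dorsoventral factors and 13 Hox genes tested, as log2(FPKM + 1), in each of the 12 day 9 and NSC libraries of both lines; a star marks genes whose KO change differed from the WT change. KO day 9 libraries were bright in Gsx1, Pax3, Pax7 and Msx3 where WT was bright in Foxa2, Shh, Nkx6-1 and Nkx6-2, and Hoxd8 and Hoxd9 were bright in KO NSCs.

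Epithelial junction and keratin genes fell (median log2 fold change -3.01). Of 12 tested, 10 were lower (83.3%, against 31.3% of all genes) and none was higher. Krt8 and Krt18 are paired keratins of simple epithelia. Krt8 went from 51.5, 32.5 and 41.1 FPKM at day 9 to 0.131, 0.117 and 0 FPKM in NSCs. Krt18 went from 45.4, 31.7 and 42.2 FPKM to 0 in every NSC library. Epcam, Cdh1, Esrp1 and several claudins fell too, whereas Tjp1 did not pass the test. Of 23 extracellular matrix genes, 9 were higher (39.1%, against 29.0% of all genes) and 8 lower (34.8%, against 31.3%). Col2a1, the fibrillar collagen of notochord and cartilage, went from 62.8, 52.97 and 70.2 to 0.354, 0.119 and 0.568 FPKM (log2 fold change -5.55 ± 0.21). Col18a1, a basement membrane collagen, went from 43.7, 43.8 and 42.97 to 5.18, 1.31 and 4.44 FPKM. Lamb1, a laminin chain, rose from 6.73 ± 0.476 to 22.6 ± 1.29 FPKM (SD, n = 3). Col9a3, which overlaps Tcfl5, rose from 1.17 ± 0.461 to 7.08 ± 2.58 FPKM.

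Hypoxia and glycolysis genes were mainly lower. The transcription factor HIF drives these genes at low oxygen through the core element ACGTG. Of 24 tested, 18 were lower (75%, against 31.3% of all genes), none was higher and 6 did not pass the test. The median log2 fold change was -1.12. The glucose transporter Slc2a3 was at 227, 198 and 182 FPKM at day 9 and 1.73, 2.04 and 3.81 FPKM in NSCs (log2 fold change -5.89 ± 0.29, adjusted p = 4.84e-13). Slc2a1, another glucose transporter, went from 306, 311 and 267 to 31.6, 26.7 and 30.7 FPKM (log2 fold change -3.27 ± 0.17). Ldha, lactate dehydrogenase (named after its values were seen), went from 1806, 1664 and 1407 to 875, 638 and 698 FPKM (log2 fold change -1.15 ± 0.15). Vegfa, Egln1 and Egln3 did not pass the test. Vegfa, a growth factor of blood vessels, was at 40.6, 44.4 and 44.5 FPKM at day 9 and 58.4, 69.3 and 108.1 FPKM in NSCs (log2 fold change 0.80 ± 0.55, adjusted p = 0.222). Its NSC libraries lay above the day 9 ones, opposite to the fallen members. The groups did not overlap, as was so for 69.5% of all tested genes. The letters ACGTG were searched on both strands, overlaps included, in the RefSeq promoter windows (GRCm38.p6), which all have the same length and span a start site. A window with a match was found for 16 of the 22 members with an entry, of which 10 were among the 16 fallen genes with an entry, against 25.3% of the 10837 windows of tested genes. A member with several windows was counted where any of them matched, whereas the background counts each window. The list was drawn from known HIF targets, so the share describes the list. The windows of Slc2a1 and Ldha are shown, since both genes fell and these windows hold the letters, which are in capitals. Ldha has another window, which holds no match.
Slc2a1 (chr4:119108495-119108794, plus strand): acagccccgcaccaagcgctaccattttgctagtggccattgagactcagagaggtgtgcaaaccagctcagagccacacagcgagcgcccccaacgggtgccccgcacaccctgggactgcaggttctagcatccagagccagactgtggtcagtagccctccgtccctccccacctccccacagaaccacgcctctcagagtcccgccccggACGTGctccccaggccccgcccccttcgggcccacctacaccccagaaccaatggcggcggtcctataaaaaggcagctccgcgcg
Ldha (chr7:46845554-46845853, plus strand): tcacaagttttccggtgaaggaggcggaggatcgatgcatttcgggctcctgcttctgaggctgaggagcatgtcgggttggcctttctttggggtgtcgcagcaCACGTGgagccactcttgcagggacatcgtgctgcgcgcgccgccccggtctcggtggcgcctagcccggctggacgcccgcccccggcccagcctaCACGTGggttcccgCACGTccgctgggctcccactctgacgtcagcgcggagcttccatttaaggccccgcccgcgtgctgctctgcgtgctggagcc
Pdk1, another gene that fell, had no match in either of its windows.

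Cholesterol synthesis genes rose. Of 21 tested, 15 were higher (71.4%, against 29.0% of all genes) and 1 was lower (4.76%, against 31.3%), with a median log2 fold change of 0.79. Insig1, a sterol sensor of the endoplasmic reticulum, went from 39.2, 46.2 and 40.4 to 167, 132 and 121 FPKM (log2 fold change 1.71 ± 0.28). Mvk, mevalonate kinase, went from 22.4, 25.2 and 17.1 to 59.01, 52.7 and 39.2 FPKM (log2 fold change 1.18 ± 0.19). Hmgcs1 was listed at 0 in both of its entries and was not tested. The sterol element letters TCACNCCAC were found on neither strand in the windows of the 13 members with an entry, against 1.16% of the windows of tested genes. Of 14 tested integrated stress response genes, 3 rose (21.4%, against 29.0% of all genes), 1 fell (7.14%, against 31.3%) and 10 did not pass the test. With only the 6 libraries compared in the fit, 5 rose and 5 fell. Sesn2, an inhibitor of mTORC1 signalling, rose from 15.5 ± 1.58 to 36.5 ± 2.09 FPKM (SD, n = 3). Cebpb, a transcription factor, rose from 4.24 ± 1.36 to 9.71 ± 2.36 FPKM. Atf3, a stress-induced factor, was at 4.55, 3.37 and 2.74 FPKM at day 9 and 2.12, 0.317 and 0.303 FPKM in NSCs, a fall whose call was lost without NSC replicate 2 (adjusted p = 0.0524) or 3 (adjusted p = 0.0536).

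Cell cycle genes were lower, with no rise. Of 27 tested, 18 fell (66.7%, against 31.3% of all genes). The other 9 did not pass the test, Mki67, Pcna and Cdk1 among them, and the median log2 fold change was -0.54. Ccnb2, a mitotic cyclin, went from 114, 103 and 110.3 to 30.6, 33.6 and 37.98 FPKM (log2 fold change -1.65 ± 0.1). Cdt1, a replication licensing factor, went from 44.8, 39.99 and 47.4 to 20.4, 16.9 and 18.6 FPKM (log2 fold change -1.2 ± 0.19). Of 21 G1 regulators and p53 targets, 11 rose (52.4%, against 29.0% of all genes) and 5 fell (23.8%, against 31.3%). Cdkn2a, whose locus encodes the cell cycle brakes p16Ink4a and p19Arf, was at 3.21, 0.966 and 1.14 FPKM at day 9 and 248, 152 and 184 FPKM in NSCs (log2 fold change 6.2 ± 0.26, adjusted p = 2.86e-14). It had been at 53.3 ± 8.73 FPKM in KO mESCs (SD, n = 3), so its level was lowest at day 9. Its neighbour Cdkn2b, the p15 inhibitor, went from 0.452, 0.295 and 0.489 to 17.4, 15.1 and 30.7 FPKM. Cdk6, a G1 kinase, fell from 2.77, 2.48 and 4.45 to 0, 0.3301 and 0 FPKM. Cdkn1c, the imprinted p57 inhibitor, was at 15.3, 10.5 and 17.5 FPKM at day 9 and listed at 0 in every NSC library.

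Imprinted genes, one of the gene classes linked to SmcHD1, were mainly lower in NSCs (median log2 fold change -1.12). Of 28 tested, 17 fell (60.7%, against 31.3% of all genes), 3 rose (10.7%, against 29.0%) and 8 did not pass the test. In the WT line 15 were lower and 1 higher, with a median of -1.11. H19, a noncoding RNA of the Igf2 domain, was at 300.3, 178 and 330.2 FPKM at day 9 and 0.954, 0.698 and 0.223 FPKM in NSCs (log2 fold change -7.36 ± 0.38). Igf2 itself (named after its values were seen, like Meg3 and Igf2r) went from 13.7, 7.05 and 6.57 to 0.0599, 0.161 and 0.0513 FPKM. Rian and Meg3, noncoding RNAs of the Dlk1 domain, both fell. Rian went from 92.6, 124 and 121 to 0.681, 0.0554 and 1.11 FPKM. The entry of Meg3 went from 83.9, 114 and 128 to 2.898, 0.143 and 1.18 FPKM. H19 and Rian had been at 1.23 ± 0.368 and 69.1 ± 14.05 FPKM in KO mESCs (SD, n = 3), and H19 stood at 271 ± 102 FPKM at day 7, so it was high at day 7 and day 9 alone among the 4 kinds of KO cells. Airn, the noncoding RNA antisense to Igf2r, rose from 3.27, 2.17 and 2.36 to 7.84, 9.97 and 10.3 FPKM (call lost with a pseudocount of 0.1, adjusted p = 0.0597). Igf2r, a receptor that clears IGF2, fell from 14.6, 13.1 and 17.2 to 3.79, 1.82 and 1.25 FPKM. The strand setting of the counting is not stated, so reads of the overlapping Airn and Igf2r cannot be told apart with certainty. Zrsr1, within Commd1, rose from 4.04 ± 0.565 to 7.59 ± 1.01 FPKM (SD, n = 3).

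Clustered protocadherins, cell surface proteins that give neural cells individual identities and another class linked to SmcHD1, rose. Of 19 tested entries, 16 were higher (84.2%, against 29.0% of all genes) and 1 lower (5.26%, against 31.3%). The joint entry of the Pcdha and Pcdhg genes went from 63.7, 58.7 and 70.97 to 343, 411 and 393 FPKM (log2 fold change 2.55 ± 0.11). Pcdhb5 went from 1.401, 1.58 and 2.1 to 8.79, 10.1 and 12.5 FPKM (log2 fold change 2.09 ± 0.16). Pcdhb22 was the gene that fell, from 4.76, 5.15 and 6.51 to 4.6, 3.66 and 3.13 FPKM, with its call lost under 7 alternatives, among them the absence of day 9 replicate 2 or 3 or of NSC replicate 2 or 3 (adjusted p = 0.0559 to 0.167). The Pcdhb genes lie within the span of the joint entry and resemble each other, so their values are not independent. Among DNA methylation enzymes 3 of 9 fell (33.3%, near the 31.3% of all genes) and 1 rose (11.1%, against 29.0%). Dnmt3b, a de novo methyltransferase, went from 11.4 ± 0.795 to 1.46 ± 0.142 FPKM (SD, n = 3). Its cofactor Dnmt3l, which overlaps Aire, went from 10.03, 4.91 and 7.55 FPKM to 0 in every NSC library. Tet2, which oxidizes methylcytosine, went from 3.54 ± 0.4398 to 5.68 ± 0.615 FPKM, a rise whose call was lost without any 1 of the 6 libraries other than NSC replicate 1 (adjusted p = 0.0558 to 0.131). Of 12 tested MHC class I and interferon genes, 7 fell (58.3%, against 31.3% of all genes) and 1 rose (8.33%, against 29.0%). Without day 9 replicate 1, 2 rose, and 3 did with same-sum scaling. Bst2, an antiviral membrane protein, went from 37.6, 22.7 and 35.5 to 0.371, 0 and 0 FPKM (log2 fold change -4.86 ± 0.22). The entry of H2-D1, an MHC class I chain that overlaps H2-Q1, went from 20.2, 15 and 16.1 to 3.14, 2.44 and 2.45 FPKM. Tap1, the peptide transporter, was the gene that rose, from 2.42, 0.923 and 1.06 to 4.32, 4.904 and 4.69 FPKM.

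**Figure D4:**
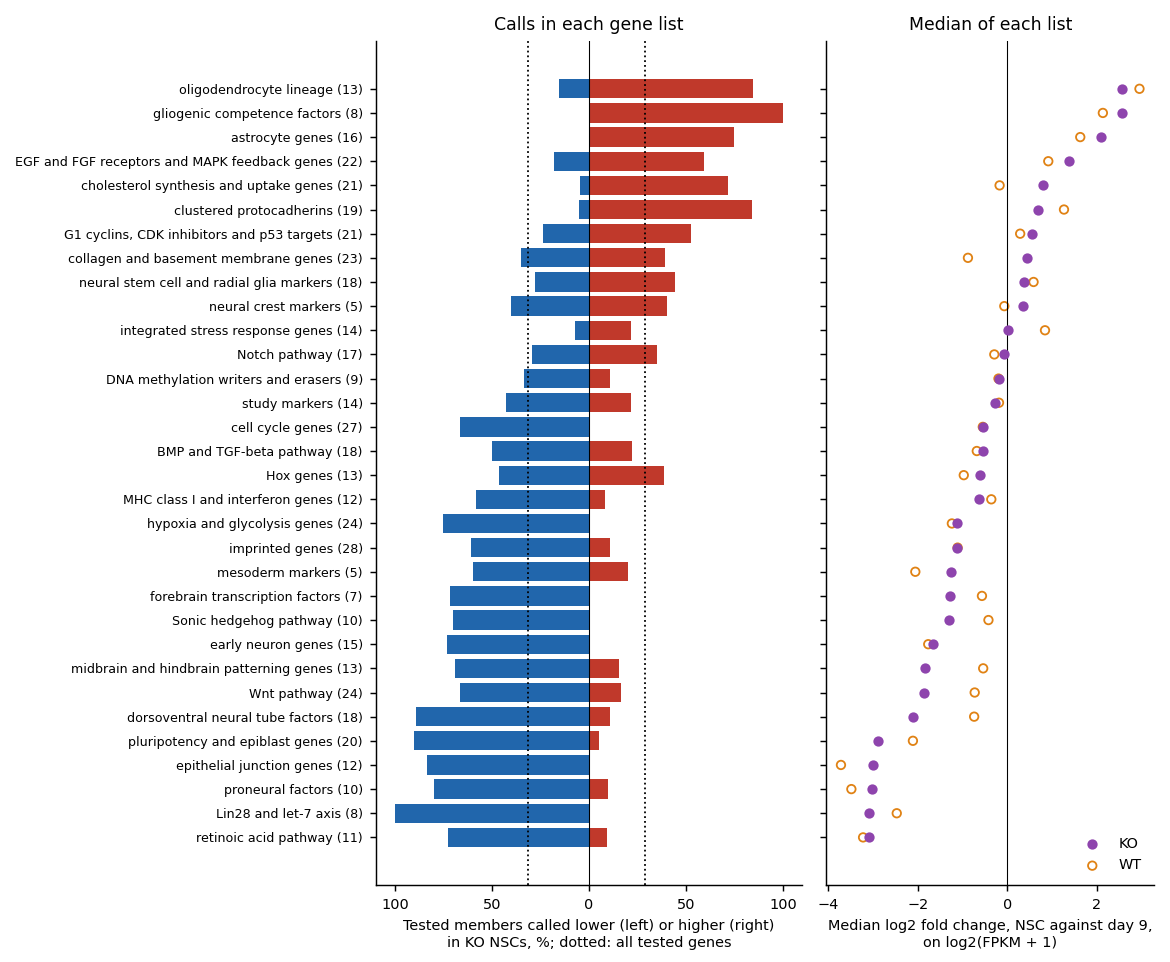
Left, share of the tested members of each gene list called higher (red) or lower (blue) in KO NSCs, with the number tested in parentheses and the shares over all genes (29.0% and 31.3%) dotted; right, median log2 fold change of each list in the KO line (filled) and the WT line (open). Lists of fewer than 5 tested genes are left out. The oligodendrocyte, gliogenic and astrocyte lists have the highest medians in both lines, and the retinoic acid, Lin28 and proneural lists the lowest in the KO line.

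Markers of other lineages were low in both kinds of cells. The summed level of the 13 endoderm markers was 8.91 to 34.97 FPKM in the day 9 libraries and 2.503 to 5.75 in the NSC libraries, with 3 of 4 tested members lower, none higher. Without day 9 replicate 2 it was 2 lower and 1 higher. Day 9 replicate 2 held the top of that range: Spink3 was at 5.72, 18.4 and 3.54 FPKM in replicates 1 to 3 and listed at 0 in NSCs. Cer1 went from 3.497, 2.85 and 2.02 to 0, 0 and 0.116 FPKM. The 13 mesoderm markers summed to 18.9 to 26.6 FPKM at day 9 and 3.67 to 6.85 in NSCs, with 3 of 5 tested lower, among them Tcf15 (8.62, 6.26 and 7.997 FPKM, then 0.574, 0.514 and 0.246) and T, the brachyury gene (3.796, 12.2 and 2.42, then 0.3403, 0.203 and 0). Foxc1 was the mesoderm marker that rose, from 0.379, 0.695 and 0.4103 to 2.595, 1.93 and 2.36 FPKM. The 12 blood, endothelial and microglia markers summed to 5.25 to 8.65 FPKM at day 9 and 0.423 to 0.898 in NSCs. Pecam1, an endothelial marker, was at 3.24, 1.87 and 2.53 FPKM at day 9 and 0 in every NSC library, and Cdh5 at 3.08, 1.25 and 2.93 and 0.0553, 0 and 0.0473 FPKM. The 6 surface ectoderm markers summed to 6.5 to 9.96 FPKM at day 9 and to at most 0.414 in NSCs, and the 1 tested, Tfap2c, fell from 8.31, 4.87 and 6.34 to 0, 0 and 0.0695 FPKM. The neural crest list differed, at 23.0 to 35.5 FPKM at day 9 and 43.3 to 51.4 in NSCs. Ets1 rose from 3.28, 2.75 and 3.72 to 23.8, 22.2 and 18.7 FPKM. Twist1 rose from 12.4, 4.92 and 10.7 to 21.8, 15.6 and 20.9 FPKM (call lost without day 9 replicate 2, adjusted p = 0.129, or NSC replicate 1, 0.0562, or 3, 0.0517). Ngfr fell from 3.703, 6.97 and 6.498 to 0, 0.176 and 0.112 FPKM, and Tfap2b fell as well, from 4.32, 2.93 and 5.84 to 0.0359, 0 and 0 FPKM. Ets1 and Twist1 are not confined to neural crest, and Sox10, Foxd3, Snai2 and Erbb3 were under the limit on levels. Genes of these lineages thus moved with the stage, and their part in the other differences was not tested.

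The most abundant entries were much alike. Of the 10 highest in each group, 7 were in both: the entries Mir682 and Mir692-1, the elongation factor Eef1a1 and the ribosomal protein genes Rpl23a, Rpl41, Rplp1 and Rps26. Mir682 was at 9858 ± 746 FPKM at day 9 and 5030.1 ± 1115 in NSCs (SD, n = 3). Because the entry is short and the libraries are poly(A), the value cannot be read as a level of mature microRNA. Its call, unlike those of Mir692-1 (same-sum scaling, adjusted p = 0.0748) and Eef1a1 (0.526), was kept under the scaling to equal sums. The Eef1a1 call was also lost with only the groups compared (adjusted p = 0.129), without day 9 replicate 1 (0.13) and without NSC replicate 3 (0.106). Ckb, brain creatine kinase, entered the top 10 in NSCs, from 476, 577 and 600.1 to 4324, 4941 and 3254 FPKM (log2 fold change 2.91 ± 0.15). Ppia also ranked there without a call (2792 ± 409 and 2704 ± 408 FPKM, SD, n = 3). Rpl38, Rps20 and Rps27 ranked in the top 10 at day 9 alone, and Rps27 fell from 5477 ± 898 to 2430.5 ± 609 FPKM (SD, n = 3). The ribosomal genes in these lists were all lower in mean FPKM in NSCs, and so was the sum of FPKM.

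The WT line allowed a check with libraries not shared with the KO comparison. In WT NSCs 3088 genes (26.3%) were higher and 3406 (29.0%) lower than in WT day 9 cells. Of the 7082 genes called in the KO line, 5385 were called in the same direction in WT, which is 76.0% of the KO calls and 82.9% of the WT calls, and 62 were called in opposite directions. Across genes, which are not independent replicates, the 2 changes correlated at 0.895 (Pearson). Olig1 changed by 9.44 in WT and 9.65 in KO (log2), Crabp1 by -9.38 and -9.21, and Lin28a by -5.77 and -6.28. Some lists had nearly the same median log2 fold change in both lines, such as cell cycle genes (-0.55 in WT and -0.54 in KO). Others lay apart: the median was -0.74 in WT against -2.12 in KO for dorsoventral factors, -0.54 against -1.84 for midbrain and hindbrain genes and -0.88 against 0.44 for matrix genes. The median of the cholesterol list was -0.17 in WT (4 higher and 4 lower) against 0.79 in KO, and that of the protocadherins 1.27 (19 higher) against 0.69. The test of the difference called 4 of the 21 cholesterol genes, from 0 without WT day 9 replicate 2 to 17 without WT NSC replicate 1, and 7 of the 19 protocadherins, from 2 to 9 over the alternatives.

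The test of the difference itself (KO change minus WT change) called 744 genes, 6.33% of those tested, with 386 above and 358 below the WT change. With every library at the same sum of FPKM, 72.3% of the calls lay above the WT change (635 and 243) in place of 51.9%, and the median over all genes shifted by 0.15. The count was 306 with a replicate block (170 above and 136 below the WT change). It also depended on single WT libraries, at 1318 without WT NSC replicate 1, which correlated least with its group (0.952 and 0.962), and 482 without WT day 9 replicate 2. Dorsoventral factors were called in 14 of 18 cases (10 to 15 over the other settings run), Hox genes in 10 of 13 (5 to 14, the upper value with low genes admitted), hedgehog genes in 6 of 10 (4 to 7) and Wnt genes in 11 of 24 (6 to 14). At day 9 every KO library was above every WT one for the dorsal factors named here and below for the ventral ones: Msx3 was at 40.7, 26.4 and 33.8 FPKM in KO and 2.22, 0.336 and 0.342 in WT. Gsx1, given above for KO, was at 3.49, 0.112 and 0.341 FPKM in WT. Pax3, a dorsal factor, was at 35.1, 26.6 and 43.6 FPKM in KO and 6.91, 1.196 and 0.956 in WT. Nkx6-1, in contrast, was at 4.73, 27.6 and 6.83 FPKM in KO and 81.3, 117 and 113 in WT day 9 libraries. Foxa2 was at 25.7, 46.7 and 38.1 FPKM in WT, above each KO library. In NSCs each of these genes was at 8.70 FPKM or less in every library of both lines. The KO change minus the WT change was -4.21 for Msx3, -3.89 for Gsx1, -4.02 for Pax3, 4.79 for Nkx6-1 and 4.1 for Foxa2 (log2). Pax7, named after its values were seen, gave -2.68.

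**Figure D5:**
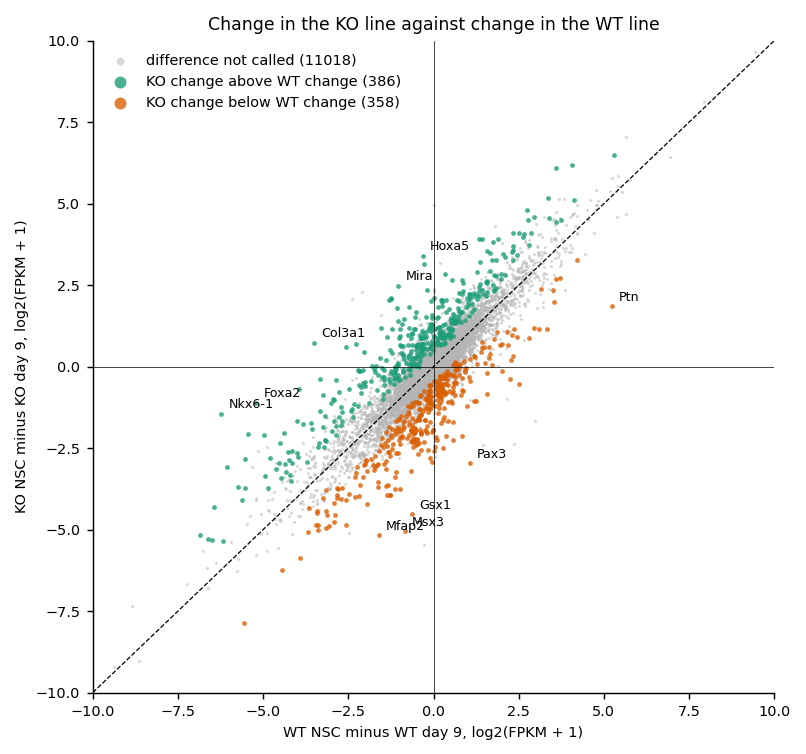
Change from day 9 to NSC on log2(FPKM + 1) in the WT line (x axis) and the KO line (y axis) for each tested gene; coloured genes passed the test of the difference, and the 5 largest in each direction among genes of at least 5 FPKM are named. Most genes lie near the dashed line of equal change.

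Several Hox genes differed in NSCs. Hoxa5 was at 9.37, 12.5 and 10.05 FPKM in KO NSCs and 3.06, 1.599 and 0.949 in WT NSCs. Hoxd8, given above for KO, was at 0.155, 0 and 0 FPKM in WT NSCs, and Hoxd9 at 0 in each of them. The KO change exceeded the WT change by 3.72 ± 0.54 for Hoxa5 (SE, adjusted p = 0.000167) and 3.43 ± 0.41 for Hoxd8 (adjusted p = 2.02e-05). Mira, a noncoding RNA between Hoxa6 and Hoxa7 on chromosome 6 (mm9 52164490 to 52165287), was at 0 in the KO day 9 libraries and 2.11, 5.65 and 7.51 FPKM in KO NSCs. In WT it was at 1.15, 1.47 and 2.397 FPKM at day 9 and 0, 0.2997 and 0.593 FPKM in NSCs. Hoxa2 went the other way, at 5.23, 5.695 and 2.54 FPKM in KO NSCs and 19.7, 21.98 and 24.5 in WT NSCs. Hoxb2 was at 10.8, 8.89 and 12.7 FPKM in WT NSCs. The call on its difference was lost with a pseudocount of 0.1 (adjusted p = 0.134) and under most of the other settings, given with the flagged results. Every KO NSC library was below every WT one for the anterior genes Hoxa2 and Hoxb2, and above for the more posterior Hoxa5, Hoxd8 and Hoxd9. These genes were picked from the list and do not stand for all of it. In KO, Hoxb7 and Hoxb8 fell to 0 in every NSC library, from means of 5.49 and 12.3 FPKM at day 9. Hoxa3 rose from a mean of 5.64 to 9.52 FPKM. Whether position along the axis orders the differences was not tested.

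Other genes with a large difference came from several groups. Mfap2, a microfibril protein, fell from 56.96, 60.96 and 55.7 to 1.47, 0.2197 and 0.4204 FPKM in KO and from 68.97, 66.9 and 71.1 to 20.7, 24.9 and 20.7 in WT, a difference of -3.57 ± 0.27 (SE, adjusted p = 6.65e-08). Ptn, the growth factor pleiotrophin, was at like levels in NSCs of both lines (491 ± 18.4 FPKM in KO and 472 ± 89 in WT, SD, n = 3) from a higher start in KO day 9 cells (196, 101 and 124 against 14.8, 9.06 and 11.3). Col3a1 was at 0.368, 0.851 and 0.616 FPKM in KO and 9.55, 28.8 and 30.5 in WT day 9 libraries, and KO NSC replicate 1 alone held 8.86 FPKM. Its difference call was lost with only the groups compared (adjusted p = 0.1) and when replicate numbers entered as a block (0.269). Cdkn2a rose more in KO, to 248, 152 and 184 FPKM against 54.8, 44.7 and 47.4 in WT NSCs (difference 2.13 ± 0.37, adjusted p = 0.00109). Of the 744 genes, 401 had their larger KO to WT gap at day 9 and 343 in NSCs.

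The chromosomes differed little in the KO change. The median log2 fold change relative to that of all genes ran from -0.07 on chromosome 13 to 0.11 on chromosome 1, and the share of genes called higher from 24.1% to 34.4% on the same 2 chromosomes. Chromosome 1 was above all genes in each NSC library, by 0.06, 0.08 and 0.14. The lines parted on chromosomes 11 and 16: relative to all genes, WT NSCs stood at 0.12 on chromosome 11 and -0.13 on chromosome 16, where KO NSCs stood at -0.04 and 0.04, and the 3 WT libraries lay on 1 side of all 3 KO libraries on both. On chromosome 16 the median over genes of the KO level minus the WT level was -0.09 in mESCs, -0.14 at day 7 and -0.16 at day 9 (log2), and 0.004 in NSCs. The KO change differed from the WT change for 8.19% of tested genes on chromosome 11 and 5.65% on chromosome 16, and the part of the chromosome shifts in those calls was not tested.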

How the data were processed

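Poly(A) RNA from 24 mouse libraries (8 groups of 3) was prepared with a stranded mRNA kit and sequenced single-end. According to the paper's methods and the submitters' processing notes, the authors trimmed reads with Trim Galore 0.6.6, aligned them to mm9 with TopHat2 2.1.1, removed reads of ribosomal RNA and the X chromosome, and computed and deposited FPKM per gene with Cuffdiff (Cufflinks). The strand setting, the normalization between libraries and the read totals are not given in the sources used here, so overlapping genes on opposite strands cannot be told apart (1959 tested entries overlap another). All 1091 genes on X and Y are listed at 0. The table holds 36 columns of FPKM, of which 12 match no sample here and were not used.

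Groups came from the sample labels. FPKM was transformed as log2(FPKM + 1), and limma 3.58.1 in R 4.3.3 (statmod 1.5.0) was fitted over all 24 libraries with 8 group means, moderated with a trend and robustly. Contrasts were KO NSC minus KO day 9, WT NSC minus WT day 9, and the first minus the second. All adjusted p-values are from limma with the Benjamini-Hochberg method over 11762 genes, two-sided, with a threshold of 0.05. The script was tested on simulated data. Tables and sequences were handled with Python 3.11.15 (pandas 2.3.3, numpy 2.4.6), and figures were drawn with matplotlib 3.10.9.

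The members and gene lists were chosen with earlier results of these data known, and no list count is independent support. Genes were named by rule: the 10 largest rises and 10 largest falls among called genes of at least 5 FPKM in the higher group whose libraries did not overlap, the 2 top called members of every list in each direction, the study's markers, the 10 highest in each group, the 5 largest called differences from WT in each direction among genes of at least 5 FPKM, and Smchd1. A further 12 (Pdgfra, Gfap, Igf2r, Meg3, Igf2, Shh, Pax7, Hmga2, Lin28b, Hoxa4, Hoxd9 and Ldha) were named after their values were seen. A few genes that the rule names are not reported here. Alternatives were another pseudocount, no filter, 2 scalings, only the groups compared, a replicate block and leaving out each library.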

Additional observations from a re-analysis of the deposited data

Results flagged for a closer look

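The test of the difference between the KO change and the WT change (limma, Benjamini-Hochberg adjusted p under 0.05) picked out 59 of the genes named by rule or afterwards. Each value below is the KO change from day 9 to NSC minus the WT change, on the log2(FPKM + 1) scale. A positive value means that the gene rose more or fell less in KO. No group has more than 3 libraries, so no library was examined as lying apart by a rule.

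Among dorsoventral factors the values were 4.79 for Nkx6-1, 4.10 for Foxa2, 3.34 for Nkx2-2 and 2.85 for Shh, which are ventral genes. They were -4.21 for Msx3, -4.02 for Pax3, -3.89 for Gsx1 and -2.68 for Pax7, which are dorsal genes. The hedgehog genes Gli1 and Gli3 gave 1.65 and -1.68. Of the other regional genes, Wnt1 gave -2.67, En2 -1.93 and Otx2 -1.40.

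Hox genes gave 3.72 for Hoxa5, 3.43 for Hoxd8, 2.54 for Hoxd9, 2.52 for Hoxa4, -1.28 for Hoxb2 and -2.79 for Hoxa2, and Mira within the Hoxa cluster gave 3.53.

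Signalling genes gave 2.60 for Aldh1a1, -1.78 for Cyp26c1, -1.78 for Sfrp2, 1.71 for Hey1, 0.85 for Notch1, -0.97 for Mfng and -1.04 for Fgfr2. In the BMP and TGF-beta list Id4 gave 1.67, Tgfb2 1.40 and Bmp6 -1.02. The growth factors Ptn and Mdk gave -3.37 and -2.31.

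Matrix and epithelial genes gave 4.22 for Col3a1, 1.67 for Col4a1, 1.04 for Lamb1, -3.57 for Mfap2, 1.33 for Krt8 and 1.16 for Krt18. Progenitor, glial and neuronal genes gave 2.48 for Aldoc, 1.21 for Acsbg1, 1.02 for Hes6, 1.68 for Nefl, -0.82 for Sox2 and -1.37 for Prom1. Markers of mesoderm and neural crest gave 1.71 for Foxc1, 1.56 for Snai1, 1.56 for Ngfr and -1.89 for Tfap2b.

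The cell cycle inhibitors Cdkn2a and Cdkn2b gave 2.13 and 2.01, and Ccnb2 gave -0.55. Imprinted Airn and Igf2 gave 1.74 and -1.76. Clustered protocadherins gave 0.82 for Pcdhb5 and -1.52 for Pcdhb22. The remaining values were 1.31 for Cebpb, -1.47 for Bst2, -0.56 for Eef1a1 and -0.75 for the Mir682 entry.

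For 28 of the 59 genes the call was lost under at least 1 other setting run. With the replicate number as a block the adjusted p was 0.269 for Col3a1, 0.126 for Lamb1, 0.111 for Mdk and 0.0623 for Nkx2-2. With only the groups compared it was 0.1 for Col3a1, 0.0637 for Lamb1, 0.0792 for Mdk and 0.0732 for Nkx2-2. With a pseudocount of 0.1 it was 0.134 for Hoxb2 and 0.405 for Krt18. Leaving out 1 library at a time, Krt18 was lost in 11 of 12 cases (0.0542 to 0.12) and Hoxb2 in 8 (0.0727 to 0.134). Hoxb2 was also lost with low genes admitted (0.0553), at the same sum of FPKM (0.0576), with only the groups compared (0.0814) and with the block (0.0654), and Krt18 with low genes admitted (0.0587). Aldh1a1, Bmp6, Fgfr2, Foxc1 and Hey1 were lost with the block alone. The other 17 were Acsbg1, Airn, Ccnb2, Cebpb, Eef1a1, Gli1, Id4, Krt8, Mfng, Mir682, Ngfr, Notch1, Otx2, Pcdhb5, Snai1, Sox2 and Tgfb2.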

How the results depend on the processing

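The KO comparison called 7082 genes in the report and 6888 with a pseudocount of 0.1, 8293 without the filter on low values, 7212 with every library at the same sum of FPKM, 7085 with median-ratio scaling and 7552 with only the 6 libraries compared, and 6509 to 6690 when each library was left out in turn. Of 143 named genes none changed direction under any of these, and 12 lost a call under at least 1 of them. The KO change minus the WT change called 744 genes in the report and 540 with the smaller pseudocount, 942 without the filter, 878 at the same sum, 737 with median-ratio scaling, 536 with only the 12 libraries, and 482 to 1318 when each library was left out, and 28 of the 59 named genes lost a call under at least 1 alternative. Relative to all genes, the median change on chromosome 5 was 0.0254 and on chromosome 6 was 0.0658 at the same sum of FPKM, in place of 0.016 and 0.0738, both moved by more than 1 SD of the values of the 3 NSC libraries, and the cause was not tested. The deviations of same-numbered KO libraries from their group means correlated at 0.119, -0.043 and -0.0006, and those of differently numbered ones at -0.093 to 0.089. With 3 libraries per group, these values cannot decide whether the replicate numbers pair the samples. With the replicate number as a block (replicate block), the KO comparison called 7570 genes and the difference 306 (170 above and 136 below the WT change). FPKM carries no read total, so the precision of low values is unknown.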
